A study of Saccharomyces cerevisiae with 18 samples.

Results

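The mRNAs of the 39 nuclear genes for the mitochondrial respiratory chain and the ATP synthase of budding yeast (Saccharomyces cerevisiae) were followed, out of 6596 gene features, 6476 of which had reads. The genes were taken by name as known subunits, and the rule uses no measured value, although results of these data were known when it was set. They hold 2 NADH dehydrogenases, 4 subunits of complex II, 9 of complex III, 2 forms of cytochrome c, 9 subunits of complex IV and 13 of complex V, the ATP synthase. All 39 had reads in every library, the lowest being 412 reads, so every member entered every test.

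The respiratory chain passes electrons from NADH and succinate to oxygen through complexes of the inner mitochondrial membrane. Complexes III and IV pump protons, and the ATP synthase uses the returning protons to make ATP. Budding yeast has no proton-pumping complex I and uses single-chain NADH dehydrogenases in its place. In glucose it ferments, and glucose represses most of these genes, which the Hap2/3/4/5 complex activates during respiratory growth. Cytochrome c and subunit 5 of complex IV each come in a pair of forms, 1 of them (CYC1, COX5A) made in air and the other (CYC7, COX5B) favoured at low oxygen.

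RNA-seq libraries of poly(A) RNA were made from 2 strains in which a splicing factor gene was placed under the GAL1 promoter, which galactose switches on and glucose switches off. The Snu114 strain (PGAL1-YKL173w) drives SNU114, the GTPase of the U5 snRNP, and the Dib1 strain (PGAL1-YPR082C) drives DIB1, a protein of the U4/U6.U5 tri-snRNP. Each strain gave 3 libraries after 4 h in glucose medium (YPD), 3 after 8 h in glucose and 3 after 6 h in galactose medium (YPGal), 18 libraries in all. Both are labelled as BY4742 background, Mat alpha, with his3Δ1, leu2Δ0, met15Δ0 and ura3Δ0, and they differ at LYS2, which is lys2Δ0 in the Snu114 strain and LYS2 in the Dib1 strain. No strain with both native promoters was analysed here, so depletion of the factor, the change of sugar and the loss of its galactose-driven excess cannot be told apart in any comparison of glucose with galactose. The labels do not say that replicates were separate cultures, and p-values may then measure only technical spread.

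Gene reads came to 17.1 to 58.6 M per library. SNU114 had a median of 1210 normalised reads at 4 h, 1252 at 8 h and 161818 in galactose in the Snu114 strain, and DIB1 had 249, 265 and 121968 in the Dib1 strain. The Dib1 libraries, labelled Mat alpha, carried the a-cell transcript STE2 at 12594 to 22609 normalised reads and the alpha-cell transcript MF(ALPHA)1 at 62.9 or less, whereas the Snu114 libraries held MF(ALPHA)1 at 71259 to 106892. The transcripts of the Dib1 libraries are thus those of a cells and go against their Mat alpha label. The difference between the strains therefore also carries mating-type transcripts and LYS2, and their part in it was not tested. LEU2 had 0 reads in every library, but HIS3 had 1191 to 2788 normalised reads. A pair of libraries stood apart from the other 2 of their groups: Snu114 8 h replicate 3, where 7.92% of genes differed by more than 1 on the log2 scale, and Dib1 4 h replicate 1, where 8.28% did, against 0.585% to 3.73% in the other libraries. Results that rest on them are given with and without them.

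The genes fell as a body in glucose. In the Snu114 strain 33 of the 39 fell at 4 h and none rose (7.68% of all 6447 genes tested fell and 3.78% rose), and the median change was -0.99 on the log2 scale, a level 1.98-fold lower. At 8 h 33 also fell and none rose, with a median of -1.21 (5.71% of all genes fell and 3.27% rose). The Dib1 strain had 34 that fell and none that rose at 4 h, with a median of -1.50 (10% of all genes fell and 5.17% rose), and 36 that fell and none that rose at 8 h, with a median of -1.35 (15.1% and 13.7%). The median over all genes tested was 0.00 or 0.01 in each of these comparisons. The test was limma on log2(normalised reads + 1) with Benjamini-Hochberg adjustment over all genes tested, called at 0.05, and every change below is on that log2 scale, glucose minus galactose, with its standard error. The 4 h and 8 h comparisons of a strain share its galactose libraries.

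All 3 glucose libraries lay below all 3 galactose libraries for 38 members in the Snu114 strain at 4 h (18.2% of all genes, with 15.7% above) and for 35 at 8 h (14.7%). Among the Dib1 libraries this held for 35 members at 4 h (17.2% of all genes, with 15.2% above) and for 37 at 8 h (26.5%). CYC7, for the second form of cytochrome c, was the single member whose glucose libraries all lay above galactose, at 8 h in both strains, where 13.2% of all genes in the Snu114 strain and 25.5% in the Dib1 strain did so. By the authors' deposited tables, 37 members were called lower at 4 h and 36 at 8 h in the Snu114 strain, and 35 and 36 in the Dib1 strain. They called 1 member higher, at 8 h in the Dib1 strain. The share of all genes that the authors called is not given here, and the limma shares above do not apply to their counts. DESeq2 on recovered reads called 740 and 553 of 6447 genes lower in the Snu114 strain, and 831 and 1142 in the Dib1 strain.

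The number called in the Snu114 strain at 4 h rested on single libraries. It was 13 without 4 h replicate 1, 18 without 4 h replicate 2, 14 without galactose replicate 2 and 19 without galactose replicate 3, and 13 members passed whichever library of the comparison was left out. Of the 33 called at 8 h, 25 passed whichever library was left out, and leaving out Snu114 8 h replicate 3 gave 36 with a median of -1.06. For the Dib1 strain 33 members passed at 4 h whichever library was left out and 34 at 8 h, and without Dib1 4 h replicate 1 there were 37 called at 4 h, with a median of -1.42.

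**Figure D1:**
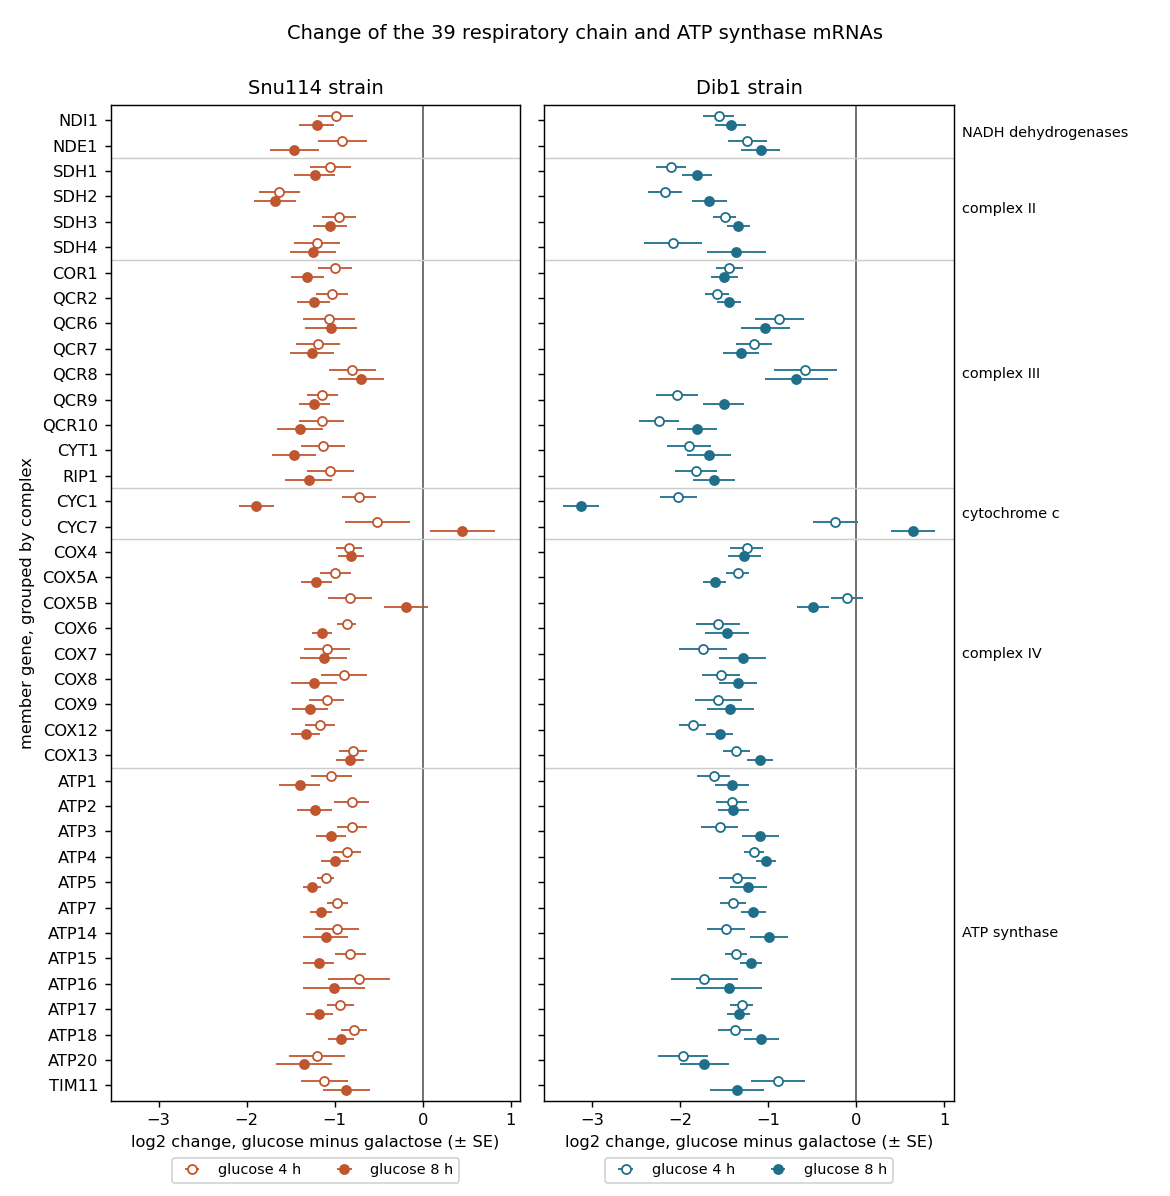
Log2 change of each of the 39 mRNAs, glucose minus galactose, with its standard error from limma, in the Snu114 strain (left) and the Dib1 strain (right); open circles are 4 h and filled circles 8 h, and the vertical line marks no change. Medians lie at -0.99 and -1.21 in the Snu114 strain and at -1.50 and -1.35 in the Dib1 strain, with CYC1 farthest to the left at 8 h and CYC7 to the right of 0 at 8 h in both.

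As a share of all gene reads, the 39 genes took 0.888% ± 0.148 at 4 h, 0.849% ± 0.029 at 8 h and 1.81% ± 0.18 in galactose in the Snu114 strain (SD, n = 3 each). Their share in the Dib1 strain was 0.828% ± 0.096, 0.866% ± 0.029 and 2.14% ± 0.14 at the same points (SD, n = 3 each). The 13 ATP synthase genes gave the largest part, at 0.382%, 0.347% and 0.746% in the Snu114 strain and 0.344%, 0.374% and 0.904% in the Dib1 strain. These are shares of reads and not of molecules, since they are not divided by gene length.

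**Figure D2:**
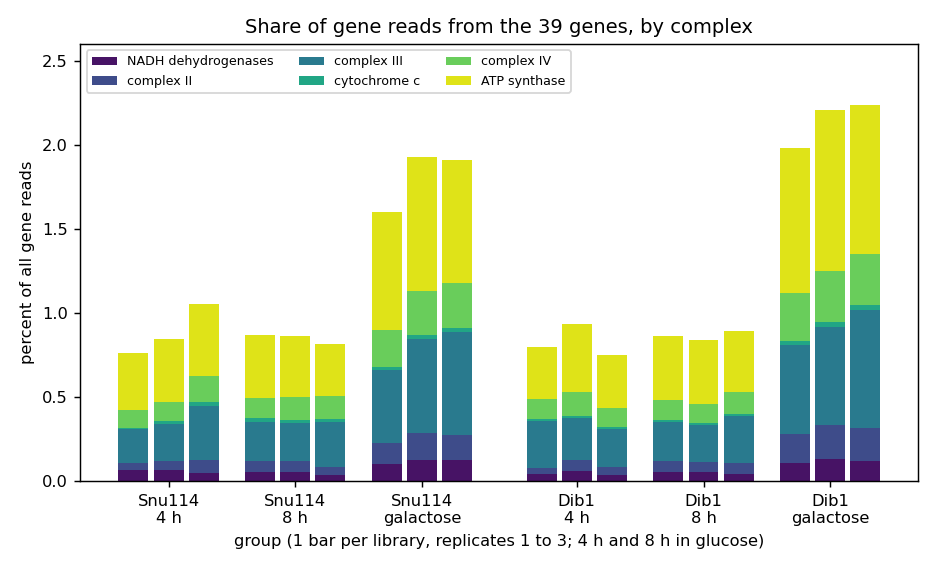
Percent of all gene reads that came from the 39 genes in each library, stacked by complex, with 3 libraries (replicates 1 to 3) per group; 4 h and 8 h are hours in glucose. Glucose libraries lie between 0.748% and 1.05% and galactose libraries between 1.60% and 2.24%.

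Leaving aside the cytochrome c pair, the medians of the complexes at 4 h in the Snu114 strain ran from -0.89 for complex IV to -1.12 for complex II, and at 8 h from -1.14 for complex IV to -1.33 for the NADH dehydrogenases. The Dib1 strain's medians ran from -1.40 for the ATP synthase to -2.10 for complex II at 4 h, and from -1.23 to -1.52 for the same complexes at 8 h. Without Snu114 8 h replicate 3, the Snu114 medians at 8 h ran from -0.99 for the ATP synthase to -1.16 for complex III. Without Dib1 4 h replicate 1, the Dib1 medians at 4 h ran from -1.29 for complex IV to -1.79 for complex II. No difference between complexes was tested.

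NDI1, the NADH dehydrogenase that faces the matrix, had 4178, 4560 and 4966 normalised reads at 4 h, 4798, 4326 and 2911 at 8 h and 7369, 10160 and 9871 in galactose in the Snu114 strain. No glucose library reached a galactose one, and NDI1 fell at both times, with changes of -0.99 ± 0.20 and -1.20 ± 0.20 (limma adjusted p = 0.013 and 0.0055). It also fell at both times in the Dib1 strain, with -1.56 ± 0.18 and -1.43 ± 0.18. NDE1, the dehydrogenase that faces the intermembrane space, changed by -0.91 ± 0.28 at 4 h in the Snu114 strain and missed the threshold (limma adjusted p = 0.066), but passed with replicate number as a block (adjusted p = 0.023). Here and below, in the Snu114 strain and between the strains, that block included the Snu114 8 h libraries, whose replicate 1 did not pair by number. NDE1 fell there at 8 h (-1.46 ± 0.28) and at both times in the Dib1 strain (-1.24 ± 0.22 and -1.09 ± 0.22).

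All 4 genes of complex II, the succinate dehydrogenase that links the tricarboxylic acid cycle to the chain, fell in both strains at both times. SDH2, the iron-sulfur subunit, had 2232, 2921 and 3534 normalised reads at 4 h, 3258, 3326 and 1932 at 8 h and 7879, 10256 and 8467 in galactose in the Snu114 strain. Its counts in the Dib1 strain were 1805, 3274 and 2556 at 4 h, 3685, 3244 and 3603 at 8 h and 9662, 11774 and 12231 in galactose. Every glucose library lay far below every galactose library of its strain. The changes of SDH2 were -1.63 ± 0.24 and -1.68 ± 0.24 in the Snu114 strain (limma adjusted p = 0.0023 and 0.0025) and -2.17 ± 0.20 and -1.67 ± 0.20 in the Dib1 strain (adjusted p = 9.7e-05 and 0.00023).

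SDH1, the flavoprotein that oxidises succinate, changed by -1.05 and -1.23 in the Snu114 strain and by -2.11 and -1.81 in the Dib1 strain. The membrane anchors SDH3 and SDH4 changed by between -0.95 and -1.25 in the Snu114 strain and between -1.34 and -2.09 in the Dib1 strain.

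Of the 9 genes of complex III, which passes electrons from ubiquinol to cytochrome c, 8 fell at 4 h and 7 at 8 h in the Snu114 strain, and 7 and 8 in the Dib1 strain. RIP1, the Rieske iron-sulfur protein, had 1818, 2595 and 2768 normalised reads at 4 h, 2366, 2483 and 1333 at 8 h and 3947, 6134 and 4768 in galactose in the Snu114 strain. The glucose groups did not overlap with galactose, and RIP1 changed by -1.05 ± 0.27 and -1.29 ± 0.27 there and by -1.82 ± 0.24 and -1.62 ± 0.24 in the Dib1 strain. CYT1, cytochrome c1, changed by -1.13 and -1.46, and by -1.90 and -1.67. Of the core proteins, QCR2 changed by -1.03 and -1.24 in the Snu114 strain and by -1.58 and -1.44 in the Dib1 strain, and COR1 fell in all 4 comparisons, with -1.31 and -1.50 at 8 h. QCR7, a matrix-side subunit, had falls close to these, with -1.18 and -1.25, and -1.17 and -1.31.

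QCR9 and QCR10 are small subunits whose genes carry introns. For the Dib1 strain QCR10 had 656, 1350 and 878 normalised reads after 4 h, 1290, 1186 and 1239 after 8 h and 3660, 4938 and 4549 in galactose. No glucose library came near a galactose one. Its change there was -2.24 ± 0.23 at 4 h (limma adjusted p = 0.0002), the lowest value among the 39, and -1.81 ± 0.23 at 8 h. QCR10 changed by -1.15 and -1.39 in the Snu114 strain. QCR9 changed by -1.14 and -1.23 in the Snu114 strain and by -2.04 ± 0.24 and -1.51 ± 0.24 in the Dib1 strain.

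QCR8, the small subunit next to cytochrome b, was the only complex III gene that passed in none of the 4 comparisons with galactose. It had 4027, 3615 and 4457 normalised reads at 4 h, 3284, 4033 and 6007 at 8 h and 5640, 5947 and 10160 in galactose in the Snu114 strain. The Dib1 strain gave 10007, 4197 and 2871 at 4 h, 5230, 4533 and 4088 at 8 h and 7511, 7170 and 7457 in galactose. The first Dib1 4 h library, the one that stood apart, was above every galactose library, and the other 4 h libraries were below them.

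QCR8 changed by -0.80 ± 0.26 and -0.70 ± 0.26 in the Snu114 strain (limma adjusted p = 0.082 and 0.14) and by -0.58 ± 0.36 and -0.68 ± 0.36 in the Dib1 strain (adjusted p = 0.30 and 0.19). With replicate number as a block it passed at 4 h in the Snu114 strain (adjusted p = 0.011). QCR6, the acidic hinge subunit, and TIM11, ATP synthase subunit e, were likewise high in Dib1 4 h replicate 1, with 20047 and 6252 normalised reads against 11926 to 14034 and 2540 to 3051 in the other 2. Neither passed at 4 h in the Dib1 strain (-0.87 and -0.88), nor at 8 h in the Snu114 strain (-1.04 and -0.87), while both fell in the other 2 comparisons. Without Dib1 4 h replicate 1, QCR6, QCR8 and TIM11 also fell at 4 h (-1.09, -1.09 and -1.27), and QCR6 passed with the block as well (adjusted p = 0.042).

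Cytochrome c carries electrons from complex III to complex IV, and its 2 genes moved apart. CYC1, the iso-1 form, had 1339, 1741 and 1657 normalised reads at 4 h, 727, 780 and 596 at 8 h and 1948, 3231 and 2752 in galactose in the Snu114 strain. Its counts in the Dib1 strain were 880, 1586 and 1301 at 4 h, 571, 569 and 558 at 8 h and 4105, 5733 and 5176 in galactose. The 3 groups did not overlap in either strain.

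At 8 h CYC1 changed by -1.89 ± 0.20 in the Snu114 strain (limma adjusted p = 0.00037) and by -3.13 ± 0.21 in the Dib1 strain (adjusted p = 8.6e-06), the widest fall of any of the 39 in both. At 4 h it changed by -0.72 ± 0.20 in the Snu114 strain (limma adjusted p = 0.044) and by -2.02 ± 0.21 in the Dib1 strain (adjusted p = 0.00019). The Snu114 call at 4 h was lost on leaving out any 1 of the 4 h libraries or galactose replicate 2 or 3, with changes of -0.56 to -0.80.

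CYC7, the iso-2 form, had 849, 1474 and 2985 normalised reads at 4 h, 3701, 2711 and 2800 at 8 h and 1880, 2363 and 2472 in galactose in the Snu114 strain. Its counts in the Dib1 strain were 1599, 1735 and 902 at 4 h, 2480, 1961 and 3237 at 8 h and 1525, 1505 and 1789 in galactose. The 8 h libraries were all above galactose in both strains, and the 4 h libraries overlapped with galactose. No change of CYC7 against galactose passed by limma: at 8 h it was 0.45 ± 0.37 in the Snu114 strain (limma adjusted p = 0.54) and 0.65 ± 0.25 in the Dib1 strain (adjusted p = 0.087). The authors' deposited values called CYC7 higher at 8 h in the Dib1 strain (0.67, their adjusted p = 0.037). DESeq2 on reads recovered from the deposited values also called 1 member higher there, where 1031 of 6447 genes rose by that tool. Without Snu114 4 h replicate 3, where CYC7 was highest of its group, the change at 4 h in that strain was -0.99 and passed (adjusted p = 0.037). Per kilobase of coding sequence, CYC7 stood at 106% ± 60 of CYC1 at 4 h, 427% ± 81 at 8 h and 83.5% ± 11.6 in galactose in the Snu114 strain, and at 116% ± 55, 437% ± 114 and 31.5% ± 5.5 in the Dib1 strain (SD, n = 3 each). No test was run on that ratio.

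**Figure D3:**
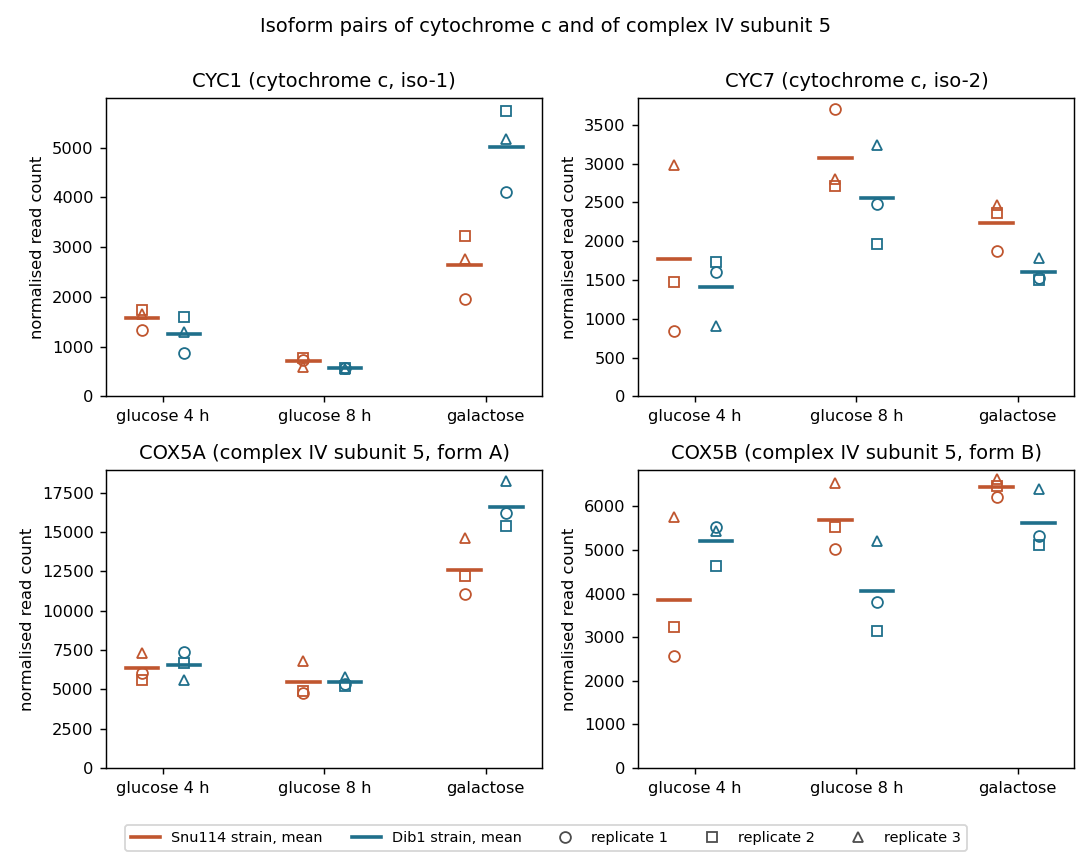
Normalised read counts of CYC1 and CYC7, for the 2 forms of cytochrome c, and of COX5A and COX5B, for the 2 forms of subunit 5 of complex IV, in every library, with replicates as open symbols and the mean of 3 as a bar. CYC1 lies at 596 to 780 (Snu114) and 558 to 571 (Dib1) at 8 h, below every galactose library, while CYC7 at 8 h lies above galactose in both strains.

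Complex IV, cytochrome c oxidase, reduces oxygen. Of its 9 nuclear genes 7 fell at 4 h and 8 at 8 h in the Snu114 strain, and 8 fell at each time in the Dib1 strain. COX5A had 6071, 5619 and 7294 normalised reads at 4 h, 4741, 4923 and 6814 at 8 h and 11031, 12185 and 14597 in galactose in the Snu114 strain. The groups did not overlap with galactose, and COX5A changed by -0.99 ± 0.18 and -1.21 ± 0.18 there (limma adjusted p = 0.0077 and 0.0031) and by -1.35 ± 0.13 and -1.61 ± 0.13 in the Dib1 strain. COX4, which binds zinc, changed by -0.84 and -0.81, and by -1.25 and -1.27. The accessory subunits COX6, COX12 and COX13 changed by between -0.79 and -1.33 in the Snu114 strain and between -1.09 and -1.86 in the Dib1 strain. COX7 and COX9, small membrane subunits, changed by between -1.09 and -1.28, and between -1.29 and -1.74. COX8 changed by -0.89 ± 0.26 at 4 h in the Snu114 strain, which missed the threshold (limma adjusted p = 0.056) but passed with the replicate block (adjusted p = 0.029), and it fell in the other 3 comparisons (-1.24, -1.54 and -1.34).

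COX5B, the second form of subunit 5, passed in none of the 4. It had 2564, 3244 and 5753 normalised reads at 4 h, 5026, 5520 and 6528 at 8 h and 6221, 6476 and 6633 in galactose in the Snu114 strain. Its counts in the Dib1 strain were 5527, 4635 and 5429 at 4 h, 3816, 3135 and 5204 at 8 h and 5314, 5124 and 6390 in galactose. The glucose groups overlapped with galactose except at 4 h in the Snu114 strain, where the change was -0.83 ± 0.25 (limma adjusted p = 0.063), or -1.16 (adjusted p = 0.0023) without 4 h replicate 3. The change was -0.19 ± 0.25 at 8 h there, and -0.11 ± 0.18 and -0.49 ± 0.18 in the Dib1 strain. With the replicate block the Snu114 change at 4 h and the Dib1 change at 8 h passed (adjusted p = 0.022 and 0.016). Per kilobase of coding sequence COX5B stood at 60.4% of COX5A at 4 h, 106% at 8 h and 52.3% in galactose in the Snu114 strain, and at 81.3%, 74.9% and 34.2% in the Dib1 strain, with no test of that ratio. Whether gene counts include intron reads is not stated. COX5B intron reads came to 26.5% of its gene reads at 8 h and 4.93% in galactose in the Dib1 strain. Their part in the COX5B level and in that ratio was not tested.

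Of the 13 ATP synthase genes 12 fell at 4 h and 11 at 8 h in the Snu114 strain, and 12 and 13 in the Dib1 strain. ATP2, the catalytic beta subunit, had 24915, 26868 and 28063 normalised reads at 4 h, 23671, 21000 and 15688 at 8 h and 44593, 49668 and 45342 in galactose in the Snu114 strain. All glucose libraries lay below galactose, and ATP2 changed by -0.81 ± 0.20 and -1.23 ± 0.20 there (limma adjusted p = 0.031 and 0.0053) and by -1.42 ± 0.17 and -1.40 ± 0.17 in the Dib1 strain. Its partner in the catalytic ring, the alpha subunit ATP1, changed by -1.04 and -1.40, and by -1.62 and -1.41. ATP3, the gamma subunit of the rotor, changed by -0.81 and -1.04, and by -1.55 and -1.09. The epsilon subunit ATP15, also of the central stalk, changed by -0.82 and -1.18, and by -1.37 and -1.20.

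The delta subunit ATP16 had 3812, 6268 and 7146 normalised reads at 4 h, 5969, 6023 and 2616 at 8 h and 7438, 12273 and 8422 in galactose in the Snu114 strain. All its glucose libraries lay below galactose, but neither change passed, with -0.72 ± 0.35 and -1.01 ± 0.35 (limma adjusted p = 0.23 and 0.12). ATP16 fell in the Dib1 strain (-1.73 ± 0.38 and -1.45 ± 0.38, limma adjusted p = 0.015 and 0.018), but the call was lost at 4 h without galactose replicate 2 or 3 (-1.68 and -1.55) and at 8 h without galactose replicate 2 or 3 or 8 h replicate 1 or 2 (-1.27 to -1.40). The genes of the peripheral stalk, ATP4, ATP5, ATP7 and ATP14, fell in all 4 comparisons, with changes between -0.86 and -1.25 in the Snu114 strain and between -1.16 and -1.48 at 4 h in the Dib1 strain. ATP5, which joins that stalk to the catalytic head, had the smallest error of the 39 in the Snu114 strain, at -1.10 ± 0.10 and -1.25 ± 0.10. Of the membrane subunits, ATP17 and ATP18 changed by between -0.78 and -1.17, and between -1.08 and -1.38. ATP20, which with TIM11 helps dimers of the enzyme form, changed by -1.20 and -1.35 in the Snu114 strain and by -1.97 and -1.73 in the Dib1 strain.

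Between 8 h and 4 h few members changed. Among the Snu114 libraries CYC1 alone passed, with a change of -1.17 ± 0.20 (limma adjusted p = 0.023), where 0.667% of all genes fell and 1.24% rose. Leaving out 4 h replicate 1 or 2 or 8 h replicate 1 or 2 ended that call, with changes of -1.09 to -1.28. In the Dib1 strain CYC1 fell (-1.11 ± 0.21, limma adjusted p = 0.0079, 5.79% of all genes fell) and CYC7 rose by 0.88 ± 0.25 (adjusted p = 0.046, 8.62% of all genes rose). With replicate number as a block CYC7 missed the threshold (limma adjusted p = 0.062), as it did without 4 h replicate 3 or any 1 of the 8 h libraries (changes of 0.59 to 1.06). Leaving out Dib1 4 h replicate 2, which was the highest of its group for 29 members, gave 9 calls, rises and falls counted together. The shares of all genes above belong to the fit with every library, so those 9 calls have no share beside them. CYC7 changed by 0.97 ± 0.37 in the Snu114 strain (adjusted p = 0.26), and by 1.44 (adjusted p = 0.027) without 4 h replicate 3. Members whose 8 h libraries all lay below their 4 h libraries numbered 5 in the Snu114 strain and none lay all above (9.73% and 10.3% of all genes), against 1 below and 3 above in the Dib1 strain (15.5% and 17.4%).

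The strains were compared by the difference of their changes, Snu114 minus Dib1, in 1 limma fit of all 18 libraries, so that a value above 0 means a smaller fall in the Snu114 strain. At 4 h no member passed, where 0.34% of the 6476 genes passed upward and 0.154% downward. Unadjusted p was under 0.05 for 15 members by limma, 14 by edgeR and 14 by DESeq2, and after adjustment edgeR called 0 and DESeq2 called 2, CYC1 and SDH1. With the replicate block 3 members passed, CYC1, COX6 and ATP18 (1.30, 0.71 and 0.60). The median difference over the members was 0.55, with 33 of 39 above 0.

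At 8 h the median difference was 0.17 and CYC1 alone passed, at 1.24 ± 0.30 (limma adjusted p = 0.023), where 3.2% of all genes passed upward and 3.24% downward. That call ended without replicate 1, 2 or 3 of every group (limma adjusted p = 0.081, 0.35 and 0.12), and held, at 1.35, without the 2 libraries that stood apart. For the change between 8 h and 4 h no member passed by limma, where 0.17% of all genes passed upward and 0.448% downward, and unadjusted p was under 0.05 for 4 members by limma, 4 by edgeR and 5 by DESeq2. COX5B had the highest value there, 1.03 ± 0.33 (limma adjusted p = 0.15, or 0.041 with the replicate block).

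Of the 39 genes, QCR9, QCR10 and COX5B have a row in the deposited intron table of 284 introns, and their introns are shown because they are the stretch that reads of unspliced RNA cover. The sequences were read from the RefSeq R64 genome. The intron of QCR9 lies at chrVII:859261-859473 on the minus strand, that of QCR10 at chrVIII:107832-107894 on the plus strand and that of COX5B at chrIX:155223-155310 on the plus strand. Each splits the coding sequence near its start, after 3, 6 and 1 coding bases. Capitals mark the first 6 bases (the 5′ splice site), the branch site TACTAAC and the last 3 bases (the 3′ splice site).
QCR9: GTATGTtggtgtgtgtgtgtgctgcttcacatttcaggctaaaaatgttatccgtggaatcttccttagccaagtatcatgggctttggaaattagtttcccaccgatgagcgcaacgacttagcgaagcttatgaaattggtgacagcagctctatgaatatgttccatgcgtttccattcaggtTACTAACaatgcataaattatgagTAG
QCR10: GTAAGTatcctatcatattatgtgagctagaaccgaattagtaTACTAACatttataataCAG
COX5B: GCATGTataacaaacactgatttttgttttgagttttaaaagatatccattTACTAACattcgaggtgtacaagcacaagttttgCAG
They are 213, 63 and 88 bases long, against a median of 148 over 261 introns of genes with 2 coding exons. QCR9 has the start GTATGT, which 72.0% of those introns share, QCR10 has GTAAGT and COX5B has GCATGT. All 3 hold TACTAAC, as do 83.1% of the 261.

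Intron reads were set against the reads of the gene in the same library. The ratio rose for COX5B at 8 h in the Snu114 strain, and for all 3 introns at both times in the Dib1 strain. The COX5B intron had 3.06%, 3.74% and 2.55% of the gene's reads at 4 h, 10.8%, 9.04% and 11.4% at 8 h and 2.30%, 4.33% and 3.81% in galactose in the Snu114 strain. Its shares in the Dib1 strain were 28.3%, 13.0% and 15.9% at 4 h, 25.4%, 24.0% and 30.1% at 8 h and 4.32%, 4.86% and 5.61% in galactose. The 8 h libraries lay above galactose in both strains, and the 4 h libraries overlapped with galactose in the Snu114 strain and lay above it in the Dib1 strain.

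On the log2 scale of the ratio, COX5B changed by -0.12 ± 0.26 at 4 h in the Snu114 strain (limma adjusted p = 0.81) and by 1.63 ± 0.26 at 8 h (adjusted p = 0.0002), and by 1.88 ± 0.26 and 2.43 ± 0.26 in the Dib1 strain. QCR10 stood at 9.40% ± 1.67 at 4 h, 12.2% ± 3.9 at 8 h and 8.63% ± 0.88 in galactose in the Snu114 strain, and at 17.3% ± 3.2, 29.5% ± 2.2 and 9.25% ± 0.66 in the Dib1 strain (SD, n = 3 each). Its ratio rose by 0.90 ± 0.17 and 1.67 ± 0.17 in the Dib1 strain, while the changes of 0.12 and 0.45 in the Snu114 strain did not pass. QCR9 stood at 15.9% ± 0.4, 21.7% ± 5.3 and 17.0% ± 2.0 in the Snu114 strain, and at 24.8% ± 4.0, 33.3% ± 3.2 and 18.3% ± 2.8 in the Dib1 strain (SD, n = 3 each). Its ratio rose by 0.44 ± 0.17 and 0.87 ± 0.17 in the Dib1 strain (limma adjusted p = 0.037 and 0.00064), and neither Snu114 change passed (adjusted p = 0.81 and 0.13).

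The QCR9 call at 4 h in the Dib1 strain was lost without 4 h replicate 1 or 2 or galactose replicate 2 or 3, with changes of 0.31 to 0.47. Without Snu114 8 h replicate 3, where QCR9 and QCR10 had 15.8% and 7.69% against 23.6% to 25.8% and 14.1% to 14.9% in the other 2, all 3 introns passed at 8 h.

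Most introns moved in the same way. After 4 h the Snu114 strain had a higher ratio for 0.388% of 258 introns and a lower one for 16.3%, and the Dib1 strain a higher one for 85.2% of 257, by the same test. After 8 h it rose for 82.6% in the Snu114 strain and 90.3% in the Dib1 strain. All intron reads together came to 0.535% of gene reads at 4 h, 1.49% at 8 h and 0.592% in galactose in the Snu114 strain, and to 1.77%, 2.57% and 0.528% in the Dib1 strain. The rises of the member ratios are thus part of a rise in the ratio of most introns. In the Dib1 strain the median change of the ratio over all introns was 1.61 at 4 h and 2.55 at 8 h, above those of QCR9 and QCR10. The intron's own level, intron reads scaled as gene reads are, also carries the gene's fall. On that level QCR9 and QCR10 fell at 4 h in the Dib1 strain (-1.60 and -1.34) and COX5B rose (1.77), where 188 of 257 introns rose and 8 fell.

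At 8 h against 4 h the ratio rose for COX5B in the Snu114 strain (1.75 ± 0.26, 84.1% of all introns rose). It rose for QCR9 and QCR10 in the Dib1 strain (0.44 ± 0.17 and 0.78 ± 0.17, 69.3% of all introns rose). Without Dib1 4 h replicate 1 all 3 introns rose there, and without any other 1 of the 6 libraries QCR10 alone did. Without Snu114 8 h replicate 3 all 3 rose in the Snu114 strain.

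Between the strains, Snu114 minus Dib1, the change of the ratio at 4 h was lower for COX5B (-1.997 ± 0.385, limma adjusted p = 0.00015) and for QCR10 (-0.78 ± 0.31, adjusted p = 0.028), where 82.6% of 259 introns passed downward. At 8 h QCR10 passed (-1.22 ± 0.31, limma adjusted p = 0.0046, 57.9% downward), and COX5B and QCR9 did not (-0.80 ± 0.39 and -0.54 ± 0.26). Both QCR10 calls were lost without replicate 2 of every group (-0.57 and -1.24, limma adjusted p = 0.28 and 0.081). With the replicate block QCR9 also passed, at 4 h and at 8 h (limma adjusted p = 0.012 and 0.016). For 8 h against 4 h the change of COX5B was higher in the Snu114 strain (1.20 ± 0.39, limma adjusted p = 0.014, 55.6% upward). That call was lost without replicate 1 or 3 of every group (0.81 and 1.17) and without the 2 libraries that stood apart (0.80, adjusted p = 0.060).

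**Figure D4:**
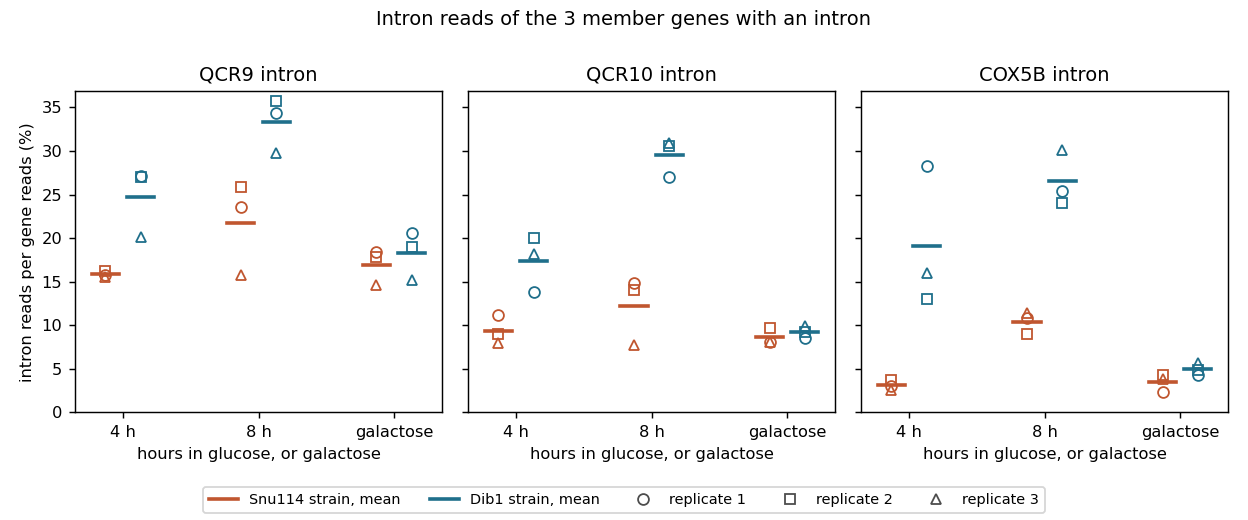
Intron reads as a percentage of the gene's reads for QCR9, QCR10 and COX5B, the member genes with an intron in the table, in every library, with replicates as open symbols and the mean of 3 as a bar. The means of all 3 introns are higher at 4 h and 8 h than in galactose for Dib1, and COX5B for Snu114 is at 9.04% to 11.4% at 8 h against 2.30% to 4.33% in galactose.

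The promoters were searched for CCAAT, the letters that the Hap2/3/4/5 complex is known to bind, on both strands in a window of 300 bases that starts 400 bases before the start codon. It was present for 35 of the 39 members (89.7%) and for 2637 of 6007 genes (43.9%). The longer form ACCAATNA, searched the same way and overlapping with the shorter one, was present for 16 members (41.0%) and for 5.33% of all. CYT1, CYC1, CYC7 and COX4 had no CCAAT in the window, and of these CYT1, CYC1 and COX4 fell in all 4 comparisons with galactose. A match is a description of the letters and not a binding site. Only exact letters were searched, so the lack of a match does not mean that the Hap complex cannot bind. ATP7, subunit d of the peripheral stalk, has 3 matches, 1 of them within the longer form. RIP1 has 1 match, within the longer form, and CYC1 has no exact CCAAT. The promoters shown belong to these members, which fell in all 4 comparisons. They were read 5′ to 3′ on the gene's strand from RefSeq R64, at chrXI:408090-408389 on the minus strand, chrV:106860-107159 on the plus strand and chrX:525935-526234 on the plus strand. Capitals mark CCAAT, or ATTGG where it stands on the other strand.
ATP7: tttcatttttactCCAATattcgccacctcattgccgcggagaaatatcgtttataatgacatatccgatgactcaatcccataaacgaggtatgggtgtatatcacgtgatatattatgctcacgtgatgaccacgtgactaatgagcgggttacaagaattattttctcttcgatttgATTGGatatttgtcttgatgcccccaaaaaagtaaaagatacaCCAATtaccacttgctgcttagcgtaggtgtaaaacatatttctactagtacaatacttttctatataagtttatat
RIP1: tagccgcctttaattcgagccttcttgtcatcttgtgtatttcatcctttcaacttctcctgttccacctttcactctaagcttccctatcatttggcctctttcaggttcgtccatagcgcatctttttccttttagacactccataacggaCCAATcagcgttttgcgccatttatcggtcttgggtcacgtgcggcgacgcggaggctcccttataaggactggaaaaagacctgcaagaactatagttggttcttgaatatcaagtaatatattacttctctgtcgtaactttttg
CYC1: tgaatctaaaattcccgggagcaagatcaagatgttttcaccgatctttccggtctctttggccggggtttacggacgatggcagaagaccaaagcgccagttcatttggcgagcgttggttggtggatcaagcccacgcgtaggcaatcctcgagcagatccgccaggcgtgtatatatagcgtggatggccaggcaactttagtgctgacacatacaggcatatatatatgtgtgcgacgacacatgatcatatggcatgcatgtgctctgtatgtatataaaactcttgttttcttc

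The genes also differed widely in level. Per kilobase of coding sequence in galactose, QCR7, QCR6, COX9, ATP15 and ATP18 were the highest 5 of the 39 in both strains. QCR7 had 61174 ± 16324 normalised reads per kilobase in the Snu114 strain and 64940 ± 16404 in the Dib1 strain (SD, n = 3 each). QCR6 and COX9 followed within its spread, at 56340 ± 16362 and 50289 ± 8699 in the Snu114 strain. The lowest were SDH1 in the Snu114 strain, at 3916 ± 622, and CYC7 in the Dib1 strain, at 4696 ± 463. The levels of the 2 subunits of the catalytic ring were unequal, with ATP2 at 286% of ATP1 per kilobase at 4 h, 274% at 8 h and 243% in galactose in the Snu114 strain, and at 302%, 265% and 263% in the Dib1 strain.

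Further subunits of the same complexes are encoded in mitochondrial DNA. Of these, COX1, COX2, COX3, COB, ATP6, ATP8 and OLI1 are listed at 0 reads in every library, as are all 28 mitochondrial features of the table, so no value can be set beside the nuclear ones.

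Genes that help to build these complexes without being part of them gave the following counts, to be read against the share of all genes called: 7.68% fell and 3.78% rose at 4 h and 5.71% fell and 3.27% rose at 8 h in the Snu114 strain, and 10% fell at 4 h and 15.1% fell at 8 h in the Dib1 strain. Of 31 genes for assembly of complex IV, 4 fell and 1 rose at 4 h and 3 fell and 1 rose at 8 h in the Snu114 strain, with medians of -0.13 and -0.17. For the Dib1 strain 9 fell at 4 h and 18 at 8 h and none rose, with medians of -0.37 and -0.57, and 11 fell at 4 h without Dib1 4 h replicate 1. COA2, an assembly factor, fell in all 4, with changes of -0.99 and -1.39 in the Snu114 strain and -1.07 and -1.22 in the Dib1 strain. RCF2, which associates with complexes III and IV, also fell in all 4, with -0.63 and -0.67, and -0.70 and -1.14. COA4 rose in the Snu114 strain, by 0.60 ± 0.15 and 0.64 ± 0.15.

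For complex III assembly none of 9 genes passed by limma in the Snu114 strain at either time, while 2 fell at 4 h and 5 at 8 h in the Dib1 strain, among them CBP4 (-1.35 ± 0.40 at 8 h) and CBS1 (-0.75 ± 0.21). For complex II assembly none of 6 passed by limma in the Snu114 strain, while 4 fell at 4 h and 2 at 8 h in the Dib1 strain, SDH7 and TCM62 at both times. For ATP synthase assembly 1 of 12 fell at 4 h and 2 at 8 h in the Snu114 strain (7.68% and 5.71% of all genes fell). In the Dib1 strain 2 fell at 4 h and 4 at 8 h (10% and 15.1% of all genes fell). There 1 also rose at 8 h, where 13.7% of all genes rose. The Snu114 count at 4 h is near the share of all genes that fell. INH1, the ATPase inhibitor protein, changed by -1.43 and -1.87 in the Snu114 strain and by -1.97 and -2.10 in the Dib1 strain.

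NCA3, which affects expression of the mitochondrial ATP synthase genes, had 588, 679 and 437 normalised reads at 4 h, 826, 1534 and 1167 at 8 h and 6133, 5149 and 4473 in galactose in the Snu114 strain. The Dib1 strain gave 915, 748 and 517 at 4 h, 3322, 3185 and 2380 at 8 h and 2035, 2013 and 1336 in galactose. No group overlapped with galactose, but the Dib1 libraries at 8 h lay above it. NCA3 fell in the Snu114 strain (-3.22 ± 0.24 and -2.19 ± 0.24), and in the Dib1 strain it fell at 4 h (-1.32 ± 0.24) and rose at 8 h (0.73 ± 0.24, limma adjusted p = 0.045).

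None of 9 tested genes of ubiquinone synthesis passed by limma in the Snu114 strain, nor at 4 h in the Dib1 strain, where 3 fell at 8 h, with COQ1 at -0.52 ± 0.11 and COQ8 at -0.36 ± 0.10. CYC3, which attaches heme to cytochrome c, changed by -0.87 ± 0.14 and -1.20 ± 0.14 in the Dib1 strain and changed by -0.30 and -0.16 in the Snu114 strain, which did not pass.

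HAP4, the activator subunit of the Hap complex, whose own expression glucose lowers, had 13815, 11712 and 6148 normalised reads at 4 h, 10282, 11617 and 5132 at 8 h and 20140, 28176 and 33515 in galactose in the Snu114 strain. Its counts in the Dib1 strain were 12630, 12089 and 5125 at 4 h, 12417, 11509 and 3511 at 8 h and 13765, 17826 and 22942 in galactose. Every glucose library lay below every galactose library, and replicate 3 was the lowest in each glucose group and the highest in both galactose groups. HAP4 fell in the Snu114 strain (-1.42 ± 0.38 and -1.65 ± 0.38, limma adjusted p = 0.040 and 0.024), and in the Dib1 strain its changes of -0.95 ± 0.50 and -1.16 ± 0.50 missed the threshold (adjusted p = 0.22 and 0.11). HAP2, HAP3 and HAP5 passed in no comparison with galactose. The transcript of HAP1, known as a heme-dependent activator of CYC1 and CYC7, rose by 0.42 ± 0.14 at 8 h in the Dib1 strain. Whether its protein is active in these strains was not measured.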

How the data were processed

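Poly(A) RNA of 18 libraries was sequenced, and the submitters' processing notes name Trimmomatic, STAR, HTSeq, DESeq2 and sacCer3, with no versions. The authors deposited, per gene and per intron, a normalised signal beside log2 fold changes and adjusted p-values of their own comparisons, per the file headers. The values of each library came out as whole multiples of 1 step for 100% of gene values (tolerance 0.001), which is what reads divided by 1 size factor per library give, so whole reads were recovered. All columns used were matched to the labels, with 0 unmatched.

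The genes were fitted with limma 3.58.1 (R 4.3.3, trend) on log2(signal + 1), per strain over 9 libraries (6447 genes) and over 18 libraries for the strain difference (6476 genes), with Benjamini-Hochberg adjustment over all genes. Intron ratios were fitted as log2((intron + 0.5)/(gene + 0.5)) over introns whose gene averaged 20 reads or more; whether gene counts include intron reads is not stated. The fit was tested on simulated data. Alternatives were edgeR 4.0.16 and DESeq2 1.42.0 on recovered reads, TMM scaling, other pseudocounts, a low-value filter, removal of a length trend, a replicate block and leaving out each library. On recovered reads edgeR called 720, 569, 941 and 1877 genes (Snu114 4 h and 8 h, Dib1 4 h and 8 h, each against galactose) and limma on the signal 739, 579, 979 and 1860. DESeq2 on recovered reads called more genes in each, 1246, 976, 1514 and 2173, so the share of all genes called depends on the tool.

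The labels give the groups the same replicate numbers. Same-numbered libraries deviated together in the Dib1 strain (correlations of 0.120 to 0.637) and between 4 h and galactose in the Snu114 strain (0.326 to 0.504), so numbers were taken to pair those. An exception was Dib1 4 h replicate 2, which among the 8 h libraries matched replicate 1 best. Snu114 8 h replicates 2 and 3 matched their numbers best (0.289 to 0.616), but replicate 1 did not (-0.078 with 4 h and -0.161 with galactose). The Snu114 8 h libraries were therefore not taken as paired, but the replicate block still grouped them by number. Its results in the Snu114 strain and between the strains thus rest partly on a pairing that these correlations do not bear out. Named genes are all 39 members, the targets, the HAP genes and, per other pathway list, the largest changes at 8 h past the threshold. Members and lists were chosen with earlier results of these data known.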

Additional observations from a re-analysis of the deposited data

Results flagged for a closer look

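Each of these values is a difference of changes between the strains, Snu114 minus Dib1, on the log2 scale, that passed limma's interaction test with Benjamini-Hochberg adjustment. The change of CYC1 at 8 h differed by 1.24, where 3.2% of all genes passed upward. The intron ratio of QCR10 differed by -0.78 at 4 h and by -1.22 at 8 h, and that of COX5B by -1.997 at 4 h and by 1.20 for 8 h against 4 h. Of all introns 82.6% passed downward at 4 h, 57.9% downward at 8 h and 55.6% upward for 8 h against 4 h. The calls of CYC1, of QCR10 and of COX5B for 8 h against 4 h were each lost on leaving out a replicate of every group, as given above.

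Among the assembly and regulator genes, NCA3 differed by -1.90 at 4 h and by -2.93 at 8 h. CYC3, the cytochrome c heme lyase, differed by 1.04 at 8 h. TCM62, a complex II assembly factor, differed by 0.48 and COA4 by 0.85 at 8 h. AAC3, the ADP/ATP carrier form known to be expressed at low oxygen, differed by 1.74 at 8 h and by 1.37 for 8 h against 4 h. HAP1 differed by -0.69 at 8 h. Mating-type transcripts and LYS2 also differ between the strains, and their part in these values was not tested.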

How the results depend on the processing

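The number of members called against galactose stayed within 1.5 times under every alternative run except on leaving out 1 library in the Snu114 strain at 4 h, where it ran from 13 to 32. For 8 h against 4 h the Dib1 count of 2 became 1 with the replicate block and 1 with the length trend removed, and ran from 1 to 9 on leaving out 1 library, and the Snu114 count of 1 ran from 0 to 3. For the strain difference at 4 h the count of 0 became 2 with DESeq2, 3 with the replicate block and 1 with the length trend removed. At 8 h the count of 1 became 0 on leaving out replicate 1, 2 or 3 of every group. For 8 h against 4 h the count of 0 became 1 with the block, and ran from 0 to 1 on leaving out a replicate of every group. The replicate block gave 37 and 36 members at 4 h and 8 h in the Snu114 strain, and 35 and 37 in the Dib1 strain. In the Snu114 strain 8 h replicate 1 did not pair by number (correlations of -0.078 and -0.161).

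Of the 3 intron ratios, counts on leaving out 1 library ran from 1 to 3 for Dib1 8 h against 4 h, Snu114 8 h and Snu114 8 h against 4 h. On leaving out a replicate of every group the strain difference ran from 1 to 3 at 4 h, from 0 to 1 at 8 h and from 0 to 1 for 8 h against 4 h. The block gave 2 for Snu114 8 h against 4 h and 2 for the strain difference at 8 h. Without both libraries that stood apart, an alternative chosen after seeing the data, the strain difference gave 2 introns at 8 h and 0 for 8 h against 4 h, and 0, 1 and 0 members. With the intron's own level, which by construction carries the gene's fall, the counts were 2 (Snu114 8 h), 1 (strain, 4 h) and 0 (strain, 8 h). The 2 were QCR9, which fell, and COX5B, which rose, and the 1 was COX5B, passing downward. Over all introns at that level, 182 of 258 rose and 7 fell (Snu114 8 h). For the strain difference 175 of 259 passed downward at 4 h and 87 at 8 h, and none upward. On that scale the sign turned, among values called on either scale, for QCR9 at -1.60 and QCR10 at -1.34 (Dib1 4 h), QCR9 at -0.63 and QCR10 at -0.14 (Dib1 8 h), QCR9 at -0.89 (Snu114 8 h) and QCR10 at 0.31 (strain, 4 h), and among values called on neither for QCR10 at -1.03 and -0.94 (Snu114 4 h and 8 h) and QCR9 at 0.37 (strain, 4 h). For single members 4511 values kept their side of the threshold, 49 passed it and 120 lost it, and the cause was not tested. Direction was checked only for values called in the main fit or in the alternative, and none of these turned.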

Other observations

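Genes that feed electrons to the chain or are extra forms of its subunits also fell: of 9, 5 fell at 4 h and 4 at 8 h in the Snu114 strain, and 5 and 8 in the Dib1 strain, where 7.68%, 5.71%, 10% and 15.1% of all genes fell. COX26, a small protein of complex IV, had changes of -3.26 and -2.71 ± 0.31 in the Snu114 strain and -3.42 and -2.44 ± 0.46 in the Dib1 strain, glucose minus galactose on the log2 scale. CYB2, the lactate dehydrogenase that passes electrons to cytochrome c, had -1.89 and -1.29, and -1.93 and -2.06.

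Of 6 genes known to answer to heme or oxygen, 1 fell at 4 h and 1 rose at 8 h in the Snu114 strain, and 1 fell at 4 h and 3 at 8 h in the Dib1 strain. Of all genes 7.68% fell at 4 h and 3.27% rose at 8 h in the Snu114 strain, and 10% and 15.1% fell in the Dib1 strain. AAC3 rose by 0.90 ± 0.22 at 8 h in the Snu114 strain and fell at 8 h in the Dib1 strain (-0.84), where OLE1, the fatty acid desaturase (-1.54), and HEM13, a heme synthesis enzyme (-1.51), fell as well. Without Snu114 8 h replicate 3 the Snu114 counts at 8 h were 1 that fell and 1 that rose, and without Dib1 4 h replicate 1 the Dib1 count at 4 h was 2 that fell.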
